A study of Mus musculus with 8 samples.

Results

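Blood and lymphatic vessel genes were followed in colon epithelial cell preparations of mice lacking SMS2 and of wild-type (WT) mice. The set held 10 genes, Plvap, Cdh5, Eng, Pecam1, Kdr, Emcn, Lyve1, Tie1, Jam2 and Rgs5, of 19505 genes on the array with a single gene symbol. A gene with several rows was represented by its row of highest mean. SMS2, encoded by Sgms2, is sphingomyelin synthase 2, which makes sphingomyelin from ceramide. The 4 groups were SMS2 knockout (KO) mice given dextran sulfate sodium (DSS), WT mice given DSS, untreated KO mice and untreated WT mice, with 2 arrays each. All mice were of the C57BL/6J strain. DSS, a polymer that injures the colon lining, was given at 3.5% in the drinking water for 2 days. The labels call the 2 arrays of a group biological replicates and give neither the number of mice behind each, nor age or sex, nor which part of Sgms2 was deleted.

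Endothelial cells line blood and lymphatic vessels, and pericytes and smooth muscle cells wrap the blood vessels. In the colon, a dense bed of fenestrated capillaries and lymphatic vessels runs in the lamina propria, directly under the epithelium. Vascular endothelial growth factors act through receptors such as Kdr, angiopoietins act through Tek with its partner Tie1, and Eng is a co-receptor for BMP and TGF-beta ligands. None of the 10 genes is a usual marker of epithelium. In RNA of a whole preparation, more vessel cells and more vessel RNA per cell cannot be told apart.

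Many endothelial genes carry binding sites of ETS transcription factors, among them Erg, Fli1 and Ets1, whose core is GGAA. Of the 10 genes, 5 had a promoter in the RefSeq table for GRCm38.p6. The 250 bases before the annotated start of 3 of them are shown because their levels behaved differently: Eng rose with DSS in both genotypes, Tie1 passed no test, and Rgs5 was low in untreated WT preparations alone. Capitals mark GGAA and its reverse complement TTCC. The windows are chr2:32646345-32646594 on the plus strand for Eng, chr4:118489850-118490099 on the minus strand for Tie1 and chr1:169655251-169655500 on the plus strand for Rgs5.
Eng: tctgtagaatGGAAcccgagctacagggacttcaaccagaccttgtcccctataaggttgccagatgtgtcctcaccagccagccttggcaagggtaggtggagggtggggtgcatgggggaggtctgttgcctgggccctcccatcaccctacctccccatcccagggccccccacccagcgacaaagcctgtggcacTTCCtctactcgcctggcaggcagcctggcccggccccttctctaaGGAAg
Tie1: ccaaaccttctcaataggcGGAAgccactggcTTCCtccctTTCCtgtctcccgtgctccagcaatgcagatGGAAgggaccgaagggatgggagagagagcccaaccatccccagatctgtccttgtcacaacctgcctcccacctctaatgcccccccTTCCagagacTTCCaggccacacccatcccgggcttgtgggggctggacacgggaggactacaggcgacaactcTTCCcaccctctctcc
Rgs5: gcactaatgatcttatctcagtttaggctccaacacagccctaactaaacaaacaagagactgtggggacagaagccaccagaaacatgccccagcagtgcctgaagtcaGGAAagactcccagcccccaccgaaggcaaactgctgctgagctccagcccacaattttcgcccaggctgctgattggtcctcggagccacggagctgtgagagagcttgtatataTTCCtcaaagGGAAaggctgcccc
Over both strands the core occurred 3 times before Eng, 7 times before Tie1 and 3 times before Rgs5. It occurred 4 times before Kdr and 4 times before Emcn, whose windows are not shown. Of 32817 promoter windows of this length, 54.6% held at least 3 such cores, 33.4% held at least 4 and 3.82% held at least 7. A match of these letters is a description of the window and not a measured binding site.

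The values are log2 signals of single transcript rows, so a level of a gene is compared only with the same gene on other arrays. Sgms2 had signals of 7.35 and 6.47 in KO with DSS, against 11.27 and 10.90 in WT with DSS, and of 7.30 and 7.33 in untreated KO, against 10.79 and 10.76 in untreated WT. All 15 epithelial markers lay above the negative-control background on every array, and their mean ran from 16.29 to 16.33 in KO with DSS, 16.27 to 16.47 in WT with DSS, 16.37 to 16.44 in untreated KO and 16.46 to 16.48 in untreated WT. The 3 Y-linked genes in the table had means from 8.99 to 9.95 in KO with DSS and 9.65 to 9.77 in WT with DSS, against 3.75 to 3.90 in untreated KO and 3.79 to 3.81 in untreated WT. Every DSS comparison therefore sets arrays with Y-linked transcripts against arrays without them, and in the DSS comparisons sex and treatment cannot be told apart. Exocrine pancreas genes were high in WT DSS replicate 1, with a list mean of 11.59, and raised in KO DSS replicate 1 (7.49), and had means from 5.87 to 6.31 on the other arrays. Replicate arrays correlated with r from 0.981 to 0.992 over the 13003 genes tested, and the p-values measure only the spread between these samples.

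The genes of endothelial junctions and surfaces were lowest in untreated WT preparations and highest with DSS. Cdh5, the VE-cadherin of endothelial junctions, had signals of 9.35 and 8.31 in KO with DSS, 8.23 and 8.67 in WT with DSS, 7.78 and 7.23 in untreated KO and 6.07 and 5.81 in untreated WT. Background was set on each array at percentile 75 of its negative controls and lay between 6.00 and 6.24, so both untreated WT arrays were not above it for Cdh5. Pecam1, an adhesion molecule of endothelium and some blood cells, had signals of 8.82 and 8.57 in KO with DSS, 8.61 and 8.43 in WT with DSS, 8.11 and 7.75 in untreated KO and 7.07 and 6.76 in untreated WT. The DSS arrays of both genotypes overlapped for these 2 genes and lay above all untreated arrays, and untreated KO lay above untreated WT. Jam2, a junctional adhesion molecule of endothelium, had signals of 9.77 and 8.71 in KO with DSS, 9.12 and 8.91 in WT with DSS, 8.28 and 7.75 in untreated KO and 7.01 and 6.53 in untreated WT. Emcn, a sialomucin of capillary and venous endothelium, had signals of 7.97 and 7.80 in KO with DSS, 7.16 and 7.45 in WT with DSS, 6.91 and 6.99 in untreated KO and 5.92 and 5.90 in untreated WT. Jam2 showed the same layering as Cdh5, while for Emcn the KO DSS arrays lay above the WT DSS arrays, and untreated WT was not above background. Plvap, which forms the diaphragms of fenestrated capillaries, had signals of 10.08 and 10.09 in KO with DSS, 9.88 and 9.97 in WT with DSS, 8.98 and 8.90 in untreated KO and 7.39 and 7.50 in untreated WT. Its 4 groups did not overlap, and its replicates differed by at most 0.11, the closest of the 10 genes.

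The receptors fell into a group that followed the same layering and a gene that did not. Eng had signals of 8.76 and 7.60 in KO with DSS, 7.74 and 7.59 in WT with DSS, 6.51 and 6.27 in untreated KO and 5.19 and 4.87 in untreated WT, the last under background. Lyve1, the hyaluronan receptor of lymphatic endothelium that some macrophages also carry, had signals of 11.01 and 10.26 in KO with DSS, 9.97 and 10.10 in WT with DSS, 8.87 and 8.36 in untreated KO and 7.51 and 7.16 in untreated WT. Both were highest in KO DSS replicate 1 and had no overlap between DSS and untreated arrays. Kdr had signals of 7.88 and 7.83 in KO with DSS, 7.06 and 8.33 in WT with DSS, 6.97 and 6.96 in untreated KO and 6.48 and 6.34 in untreated WT. Its WT DSS arrays enclosed the KO DSS arrays, a spread of 1.27 between replicates. Tie1 had signals of 6.51 and 5.79 in KO with DSS, 5.76 and 6.62 in WT with DSS, 5.76 and 5.91 in untreated KO and 5.67 and 5.76 in untreated WT. Only 1 array of each DSS group was above background for Tie1, and no untreated array was.

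Rgs5, a regulator of G-protein signalling found in pericytes and vascular smooth muscle, had a pattern of its own. Its signals were 13.19 and 12.29 in KO with DSS, 12.68 and 12.27 in WT with DSS, 12.58 and 12.92 in untreated KO and 10.20 and 10.97 in untreated WT. Untreated WT stood alone at the low end, and the other 6 arrays overlapped. The order of group means, low to high, was untreated WT, untreated KO, WT with DSS, KO with DSS for 8 of the 10 genes, the exceptions being Rgs5 and Tie1. The highest mean of Rgs5 was in untreated KO, at 12.75 against 12.74 in KO with DSS. That of Tie1 was in WT with DSS, at 6.19 against 6.15 in KO with DSS. The last step of the order, from WT with DSS to KO with DSS, passed for none of the 10. All 10 genes had their lowest mean in untreated WT. KO DSS replicate 1 was above replicate 2 for 9 of the 10.

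In WT mice, vessel transcripts were higher in the DSS preparations than in the untreated ones for nearly the whole set. Kdr and Tie1 were the exceptions. By limma's moderated test with Benjamini-Hochberg adjustment over 13003 genes, 8 of the 10 genes rose at an adjusted p under 0.05 and none fell, where 2.91% of all genes rose and 1.12% fell. Lyve1 rose by 2.70 ± 0.30 (log2 difference ± SE; adjusted p = 0.000347, limma) and Plvap by 2.48 ± 0.22 (adjusted p = 7.49e-05, limma). Cdh5, Eng and Emcn rose from background, by at least 4.97-fold (adjusted p = 0.00152), 2.89-fold (adjusted p = 0.00101) and 2.25-fold (adjusted p = 0.00453, limma). A p-value given with such a fold is that of the fitted difference, values under background included. Jam2 rose by 2.25 ± 0.35 (adjusted p = 0.00342), Rgs5 by 1.89 ± 0.35 (adjusted p = 0.00952) and Pecam1 by 1.61 ± 0.24 (adjusted p = 0.00319, limma). Kdr differed by 1.28 ± 0.34 (adjusted p = 0.0678, limma). Its difference was 1.91 without WT DSS replicate 1 and 0.65 without WT DSS replicate 2. Tie1, under background in untreated WT and on 1 of the WT DSS arrays, did not pass (adjusted p = 0.551, limma). The arrays of the 2 groups did not overlap for any of the 10 genes, with DSS higher, which held for 20.3% of all genes. The median difference was 2.07 for the 10 genes, or 1.75 with the 4 genes under background in untreated WT at their bounds, and -0.05 for all genes tested.

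Rgs5 lost its call without WT DSS replicate 1 (adjusted p = 0.0723) or untreated WT replicate 1 (adjusted p = 0.129). No call was left when the mean of the fibroblast and matrix list entered as a covariate. Over all genes that fit called 11, against 525 without the covariate. In that fit the difference was 2.32 for Plvap (adjusted p = 0.226) and 1.41 for Pecam1 (adjusted p = 0.432). It was 0.24 for Cdh5 (adjusted p = 0.916) and 0.72 for Jam2 (adjusted p = 0.77, limma). The list mean ran from 9.86 to 10.43 in WT with DSS and from 7.35 to 7.71 in untreated WT, without overlap. With group means in the fit, its slope rested on replicate gaps within groups, the widest in KO with DSS (10.84 and 9.83). The KO DSS replicates were 10.08 and 10.09 for Plvap and 8.82 and 8.57 for Pecam1. They were 9.35 and 8.31 for Cdh5 and 9.77 and 8.71 for Jam2. Which vessel genes follow the fibroblast list cannot be read from this fit.

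In KO mice, the DSS preparations again had higher vessel signals than the untreated ones for 3 genes that passed, and the other 7 did not pass. Lyve1 rose by 2.02 ± 0.30 (adjusted p = 0.0129), Eng by 1.79 ± 0.34 (adjusted p = 0.0357) and Plvap by 1.14 ± 0.22 (adjusted p = 0.0357, limma). These 3 of 10 genes passed and none fell, where 0.538% of all genes rose and 0.392% fell. Cdh5 differed by 1.33 ± 0.34 (adjusted p = 0.137), Jam2 by 1.23 ± 0.35 (adjusted p = 0.183), Emcn by 0.94 ± 0.22 (adjusted p = 0.101), Kdr by 0.89 ± 0.34 (adjusted p = 0.401) and Pecam1 by 0.77 ± 0.24 (adjusted p = 0.265, limma). Rgs5 differed by -0.01 ± 0.35 with a 95% interval from -0.77 to 0.75. Tie1, under background in untreated KO and on 1 of the KO DSS arrays, did not pass (adjusted p = 0.842, limma). All DSS arrays lay above all untreated KO arrays for 8 of the 10, where 16.8% of all genes did so, and the median difference was 1.04, against -0.04 for all genes tested.

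The count in KO depended on single arrays. Lyve1, Eng and Plvap all lost their calls without KO DSS replicate 1, and again without untreated KO replicate 2. Their differences were then 1.65 and 1.77 for Lyve1, 1.21 and 1.67 for Eng and 1.15 and 1.10 for Plvap. Over all genes the calls numbered 48 and 18 in these fits, against 121 with all arrays. Without KO DSS replicate 2 the count was 5, with Cdh5 and Jam2 added, and 297 over all genes. It was 1, Lyve1, without untreated KO replicate 1 or either untreated WT array, and in a fit without both DSS arrays that carried pancreas transcripts. Wherever a group was left with 1 array, that array was assumed to vary like the other groups. By limma none passed in a fit on the 4 KO arrays alone or with the fibroblast covariate, and these fits called 14 and 4 of all genes.

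**Figure D1:**
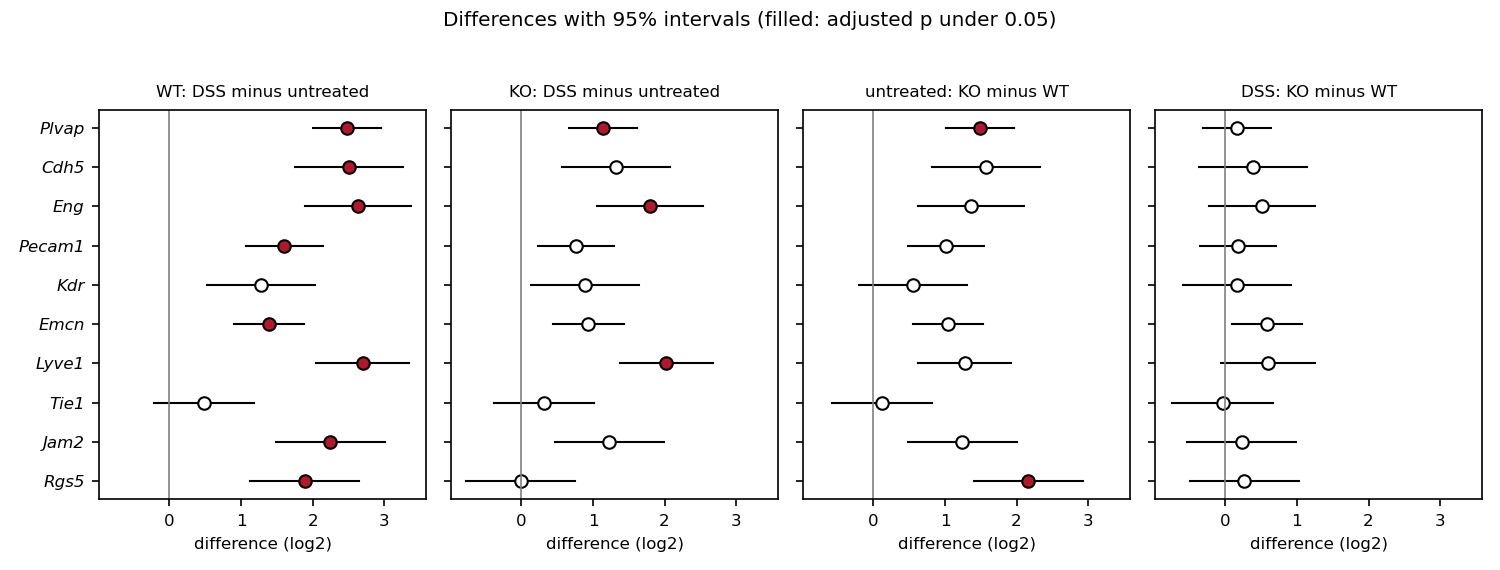
Log2 differences (horizontal axis) of the 10 vessel genes in the 4 pairwise comparisons, with 95% intervals that are not adjusted for multiple testing. Filled points passed an adjusted p of 0.05: 8 for DSS in WT, 3 for DSS in KO, 2 for KO against WT without DSS and none for KO against WT with DSS. Cdh5, Eng, Emcn and Tie1 were not above background in untreated WT, so their points against that group are fitted values.

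Without DSS, vessel signals were higher in KO than in WT preparations, and the difference passed for a pair of genes. Rgs5 was higher by 2.17 ± 0.35 (adjusted p = 0.0292) and Plvap by 1.49 ± 0.22 (adjusted p = 0.0176, limma). These 2 of the 10 passed and none was lower, where 0.338% of all genes were higher and 0.0538% lower. The other genes did not pass: Lyve1 differed by 1.27 ± 0.30 (adjusted p = 0.135), Jam2 by 1.24 ± 0.35 (adjusted p = 0.231), Pecam1 by 1.02 ± 0.24 (adjusted p = 0.14) and Kdr by 0.55 ± 0.34 (adjusted p = 0.993, limma). Cdh5 was at least 2.59-fold (adjusted p = 0.11), Emcn at least 1.76-fold (adjusted p = 0.104) and Eng at least 1.19-fold (adjusted p = 0.155, limma) above the background of the WT arrays. The KO arrays lay above the WT arrays for all 10 genes, where 17.5% of all genes did so, Tie1 being under background in both groups. The median difference was 1.26, or 1.13 with those genes at their bounds and Tie1 at no difference, against -0.03 for all genes tested. None of the 3 Y-linked genes passed between these groups.

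This count depended on the fit. It was 8, all but Kdr and Tie1, with array weights and in a fit on the 4 untreated arrays. Over all genes the calls numbered 241 and 252 in these fits, against 51 in the fit on 8 arrays. For this comparison, leaving out the DSS arrays that carried pancreas transcripts gave the same fit as the 4 untreated arrays. Leaving out KO DSS replicate 1 and leaving out replicate 2 were likewise the same fit. Rgs5 and Plvap both lost their calls without any 1 of the 4 untreated arrays, with differences from 1.78 to 2.55 for Rgs5 and from 1.44 to 1.55 for Plvap. The count was 0 with the fibroblast covariate and 1 after quantile normalization, where Rgs5 had an adjusted p of 0.0601 by limma. Over all genes the calls then numbered 3 to 24 without an untreated array, 1 with the covariate and 28 after quantile normalization.

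With DSS, no vessel gene passed between KO and WT preparations. Emcn differed by 0.58 ± 0.22 (adjusted p = 0.425) and Lyve1 by 0.60 ± 0.30 (adjusted p = 0.521, limma), the largest differences of the set. The 95% interval of the difference ran from -0.31 to 0.63 for Plvap, -0.37 to 1.14 for Cdh5, -0.36 to 0.71 for Pecam1 and -0.49 to 1.03 for Rgs5. Beside this count of 0 by limma, 1 gene (Emcn) had an unadjusted p under 0.05, where 4% of all genes were higher at that threshold and, after adjustment, 0.115% were higher and 0.238% lower. The KO arrays lay above the WT arrays for Plvap, Emcn and Lyve1, 3 of 10, where 16.1% of all genes did so. The median difference was 0.25, against -0.02 for all genes tested.

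The fitted DSS difference was smaller in KO than in WT for all 10 genes, but the test of that difference passed for none of them. The interaction, the KO difference minus the WT difference, was -1.90 ± 0.49 for Rgs5 (adjusted p = 0.367), -1.33 ± 0.30 for Plvap (adjusted p = 0.284), -1.19 ± 0.49 for Cdh5 (adjusted p = 0.862) and -0.84 ± 0.34 for Pecam1 (adjusted p = 0.862, limma). These 4 had an unadjusted p under 0.05, where 3.57% of all genes did so in the same direction and 0.0308% passed the adjusted threshold. Cdh5, Eng, Emcn and Tie1 were not above background in untreated WT, so their WT differences are bounds and their interactions, that of Cdh5 included, are fitted values only. For Kdr the interaction was -0.39 ± 0.48, and 0.24 without WT DSS replicate 2. Averaged over the genotypes, 9 of the 10 genes rose with DSS, where 3.47% of all genes rose and 2.05% fell, from 0.94 ± 0.25 for Rgs5 (adjusted p = 0.0487) to 2.36 ± 0.21 for Lyve1 (adjusted p = 5.83e-05, limma). The call of Rgs5 was lost under 11 of 18 alternatives, among them no filter on low values (adjusted p = 0.0572), equal array medians (adjusted p = 0.0611) and quantile normalization (adjusted p = 0.0689), and its direction reversed under 1, the fibroblast covariate, at -0.26. Kdr, at 1.08 ± 0.24 (adjusted p = 0.0232, limma), lost its call under 6 of 18, namely the covariate and leaving out KO DSS replicate 1 or any 1 of the 4 untreated arrays. Tie1, above background on only 1 array of each DSS group and on no untreated array, did not pass (adjusted p = 0.409, limma). All 4 DSS arrays lay above all 4 untreated arrays for 8 of the 10, where 4.76% of all genes did so.

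Other genes of blood endothelium included 6 that rose with DSS in WT, where 2.91% of all genes rose, and many lay near background. The list held 28 further genes with a row, of which 21 were tested and 12 were under background on every array. None of the 21 passed as lower with DSS in WT, and their median difference was 0.71. The fitted differences ran from -0.92 to 2.58, and 18 of the 21 were above 0, where 44.7% of all genes were. Cd34, a sialomucin of endothelium and some fibroblasts, rose by 2.58 ± 0.31 (adjusted p = 0.000642), the transcription factor Ets1 by 1.76 ± 0.29 (adjusted p = 0.00508) and the adhesion receptor Adgrl4 by 1.44 ± 0.25 (adjusted p = 0.00617, limma). Mmrn2, a matrix protein around vessels, rose by 1.18 ± 0.26 (adjusted p = 0.0295), and the transcription factors Erg and Sox7 rose from background by at least 1.06-fold (adjusted p = 0.0318) and 1.11-fold (adjusted p = 0.0497, limma). In WT with DSS Erg had signals of 6.17 and 6.28 and Sox7 of 6.28 and 6.30, where background was 6.00 and 6.24. Their p-values come from fits that include the untreated WT values under background and do not test these folds. In KO none of the 21 passed by limma, while 7 were higher at an unadjusted p under 0.05, as were 4.57% of all genes, and their median difference was 0.36. Between untreated KO and WT none passed either, with 6 higher and 1 lower at that unadjusted threshold, where 4.16% of all genes were higher and 2.16% lower.

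Of 16 tested ligands and receptors that act with Kdr, Tie1 and Eng, 2 rose with DSS in WT, or 12.5%, beside the 2.91% of all genes. Flt1, a receptor for VEGF-A, rose with DSS in WT by 1.25 ± 0.24 (adjusted p = 0.0129), and the Notch ligand Dll4 by 1.29 ± 0.31 (adjusted p = 0.0425, limma). Vegfa, the main ligand of Kdr, had signals of 11.84 and 11.38 in KO with DSS, 12.21 and 12.39 in WT with DSS, 11.83 and 12.22 in untreated KO and 11.89 and 12.13 in untreated WT. Its differences did not pass, at 0.29 ± 0.26 for DSS in WT (adjusted p = 0.685) and -0.41 ± 0.26 for DSS in KO (adjusted p = 0.706, limma). Tek, the angiopoietin receptor, is named as the partner of Tie1, after its values were seen. It was at least 1.33-fold above background with DSS in WT (adjusted p = 0.204) and differed by 0.52 ± 0.30 with DSS in KO (adjusted p = 0.669, limma). No gene of this list passed for DSS in KO or between the untreated genotypes, with 3 and 1 higher at an unadjusted p under 0.05, as were 4.57% and 4.16% of all genes.

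Lymphatic genes rose with DSS in WT beside Lyve1. Ccl21a, the chemokine of lymphatic endothelium, had signals of 11.75 and 11.06 in KO with DSS, 11.56 and 11.36 in WT with DSS, 9.72 and 9.16 in untreated KO and 7.35 and 8.11 in untreated WT. It rose by 3.73 ± 0.33 in WT (adjusted p = 7.73e-05) and by 1.96 ± 0.33 in KO (adjusted p = 0.0188, limma). Prox1, the transcription factor that sets lymphatic identity and is also found in some epithelial cells, rose from background in WT by at least 1.77-fold (adjusted p = 0.0389), and the matrix protein Mmrn1 by at least 2.64-fold (adjusted p = 0.0151, limma). Pdpn, a mucin-type protein of lymphatic endothelium and fibroblasts, rose by 1.14 ± 0.27 in WT (adjusted p = 0.0411), with 1.14 ± 0.27 in KO (adjusted p = 0.101, limma). In all, 4 of 8 tested lymphatic genes passed in WT, 1 in KO and none between the untreated genotypes, where 3 were higher at an unadjusted p under 0.05. Of all genes 2.91% rose in WT and 0.538% in KO, and 4.16% were higher between the untreated genotypes at that unadjusted threshold. Of the 10 genes of the lymphatic list with a row, 3 were under background on every array.

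Of 6 tested pericyte genes besides Rgs5, Mcam alone passed in a comparison of 2 groups, and its untreated WT arrays stood alone at the low end as for Rgs5. Mcam, an adhesion molecule of pericytes, smooth muscle and endothelium, had signals of 7.71 and 7.33 in KO with DSS, 7.61 and 7.24 in WT with DSS, 7.42 and 7.38 in untreated KO and 5.75 and 5.95 in untreated WT. It rose from background by at least 2.44-fold with DSS in WT (adjusted p = 0.00359) and was at least 2.41-fold higher in untreated KO than in untreated WT (adjusted p = 0.0286, limma). With DSS in KO it differed by 0.11 ± 0.24 (adjusted p = 0.941, limma). Of all genes 2.91% rose with DSS in WT and 0.338% were higher in untreated KO than in untreated WT. Pdgfrb, the receptor that recruits pericytes, differed by 0.999 ± 0.321 with DSS in WT (adjusted p = 0.13), by 1.21 ± 0.32 with DSS in KO (adjusted p = 0.146) and by 0.05 ± 0.32 between untreated KO and WT (adjusted p = 0.999, limma). Of 3 tested leukocyte adhesion genes, Vcam1 passed, rising from background by at least 1.44-fold with DSS in WT (adjusted p = 0.0343, limma), beside the 2.91% of all genes. Of the 6 genes of that list 4 were under background on every array.

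Besides Jam2, the junctional adhesion family has an epithelial member, F11r, and a member of endothelium and stroma, Jam3, and neither passed. F11r encodes JAM-A of tight junctions and had signals of 13.05 and 13.67 in KO with DSS, 13.81 and 13.61 in WT with DSS, 13.75 and 13.46 in untreated KO and 13.64 and 13.51 in untreated WT. Its groups overlapped in every comparison, and it differed by 0.14 ± 0.26 with DSS in WT (adjusted p = 0.873, limma). Jam3, not above background in untreated WT, was at least 1.39-fold higher with DSS in WT (adjusted p = 0.0743, limma).

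**Figure D2:**
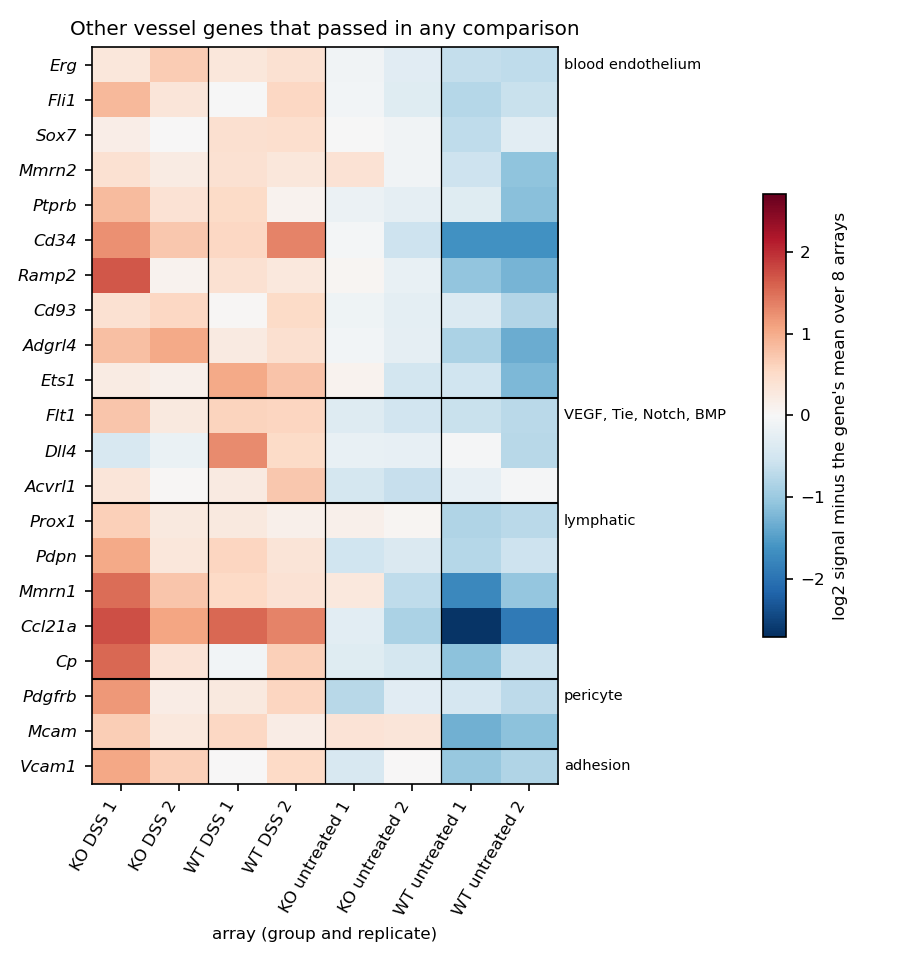
Log2 signal minus the gene's mean over the 8 arrays (colour, red above and blue below) for the 21 vessel genes outside the set of 10 that passed in any of 6 comparisons, by list. Columns are the arrays, from KO with DSS to untreated WT. The group mean is lowest in untreated WT for 20 of the 21 genes, which follows in part from choosing genes that passed. Ccl21a spans the widest range, and Dll4 is high in WT with DSS alone.

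Genes of some other non-epithelial cells moved with the vessel genes, and those of others did not. The 17 fibroblast and matrix genes had a mean from 9.83 to 10.84 in KO with DSS and 9.86 to 10.43 in WT with DSS, against 8.65 to 8.87 in untreated KO and 7.35 to 7.71 in untreated WT. The 10 vessel genes had a mean from 8.73 to 9.34 in KO with DSS and 8.62 to 8.83 in WT with DSS, against 7.90 to 8.07 in untreated KO and 6.76 to 6.85 in untreated WT. With DSS in WT 13 of the 17 fibroblast and matrix genes rose, with a median of 2.75, and in KO 6 rose, with a median of 1.40. Of all genes 2.91% rose in WT and 0.538% in KO. Macrophage and dendritic genes followed the same order, from 7.24 to 7.75 in KO with DSS, 7.05 to 7.34 in WT with DSS, 6.07 to 6.39 in untreated KO and 5.71 to 5.76 in untreated WT. Smooth muscle genes did not: their mean ran from 10.97 to 12.83 in KO with DSS, 10.54 to 11.07 in WT with DSS, 11.81 to 12.05 in untreated KO and 9.65 to 10.51 in untreated WT. The untreated KO arrays were thus high for smooth muscle, as they were for Rgs5 and Mcam, and KO DSS replicate 1 was the highest array of the 8 for fibroblast, macrophage and smooth muscle genes alike. Nerve and glia genes had means from 7.07 to 7.27 in KO with DSS and 6.61 to 6.77 in WT with DSS, against 6.89 to 6.91 in untreated KO and 6.57 to 6.65 in untreated WT, and none of 7 tested passed with DSS in WT by limma or had an unadjusted p under 0.05. At that unadjusted threshold 3 of the 7 were higher with DSS in KO, as were 4.57% of all genes. Between KO and WT with DSS 3 were also higher, as were 4% of all genes. T and NK cell genes were highest in WT with DSS, with means from 5.33 to 5.58 in KO with DSS, 5.69 to 6.21 in WT with DSS, 5.15 to 5.22 in untreated KO and 4.857 to 5.204 in untreated WT. The 2 erythroid genes had means from 5.91 to 5.93 in KO with DSS, 5.63 to 5.93 in WT with DSS, 5.83 to 5.85 in untreated KO and 5.82 to 6.13 in untreated WT. The mean of the 15 epithelial genes stayed between 16.27 and 16.48 on all arrays, but single genes differed. With DSS in WT 1 of the 15 passed as lower, where 1.12% of all genes fell, and their differences ran from -1.13 to 0.65. Of the fibroblast, macrophage and smooth muscle lists, 1 of 17 fibroblast, 4 of 14 macrophage and none of 14 smooth muscle genes were under background on every array. So were 6 of 11 T and NK cell genes, 2 of 8 nerve and glia genes and 1 of the 2 erythroid genes. The erythroid list had a row for only 2 of its 6 genes. The part of these lists in the vessel result was not tested. The fibroblast covariate given above cannot decide it, because that list mean did not overlap between DSS and untreated arrays.

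**Figure D3:**
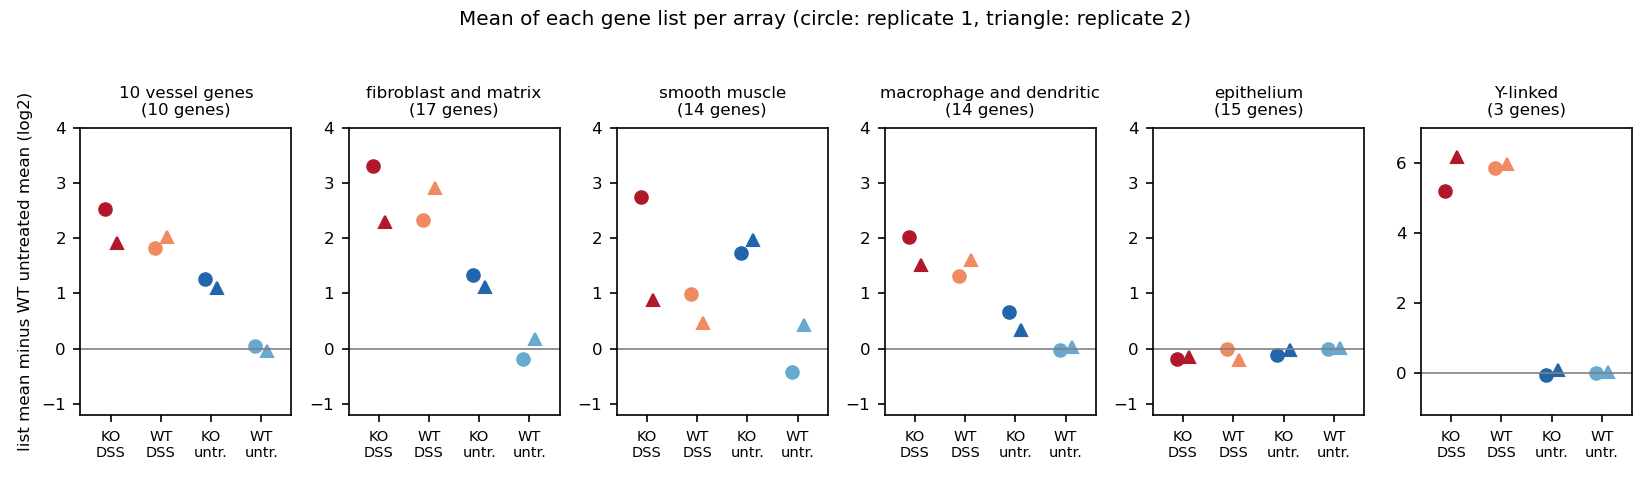
Mean log2 signal of 6 gene lists on each array minus the mean of the 2 untreated WT arrays (vertical axis, with a wider range for the Y-linked list). Groups run from KO with DSS on the left to untreated WT on the right, circles being replicate 1 and triangles replicate 2. Vessel, fibroblast and macrophage lists descend from left to right, smooth muscle is high in untreated KO, the epithelium mean stays level, and Y-linked genes are high with DSS alone.

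Of the 10 genes nearest in pattern to the mean of the 10 vessel genes over the 8 arrays, Pearson's r was 0.995 for Lyz2, the lysozyme of myeloid cells, 0.995 for Islr, 0.994 for Fbln5, an elastic fibre protein, 0.993 for Slc43a3, 0.99 for the WNT inhibitor Sfrp1 and 0.99 for the protease inhibitor Timp2. The other 4 of the nearest 10 were Ccl21b, Ccl21c and the predicted genes Gm10591 and Gm13304, which share Ccl21 synonyms in RefSeq, and Ccl21b and Ccl21c had identical values on this array. Among single genes, Eng and Lyve1 were each nearest to Sfrp1 (r = 0.996), Plvap to the matrix gene Sparc (r = 0.994) and Jam2 to the small GTPase gene Rhoj (r = 0.996), while Rgs5 was nearest to Mustn1 (r = 0.975). Between pairs of the 10 genes r ran from 0.454 for Tie1 with Rgs5 to 0.992 for Eng with Lyve1. These values describe 8 arrays that share 4 groups and 2 levels of treatment, and they are not evidence of shared control.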

How the data were processed

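RNA was measured on 8 Affymetrix arrays, and the authors deposited log2 values made with Affymetrix Expression Console, per the submitters' processing notes. The normalization, background correction and genome build are not given in the sources used. Values were used as deposited. Rows with 1 gene symbol in the platform annotation (19572) gave 19505 genes, by the row of highest mean. The lowest 33.3% by mean over all 8 arrays were left out, and 13003 genes, all 10 members among them, were tested with limma 3.58.1 in R 4.3.3: 4 group means, 6 contrasts, two-sided, Benjamini-Hochberg adjustment over all genes, threshold 0.05. An exact permutation test of groups of 2 arrays has 0.333 as its smallest p and was not run. Where every array of 1 group lay at or under its background (percentile 75 of 5222 negative controls), the fold is the other group's mean over that background. The p-value beside such a fold is from the fit of the values as deposited and does not test the fold. The number of arrays limits the precision. All 10 members are named. Of other vessel lists, genes that passed in any comparison or had high means are named, with exceptions stated. The members and lists were chosen with earlier results of these data known. Alternatives covered filters, rows, scaling, variance, weights, arrays left out, a replicate block and a fibroblast covariate. Promoter sequences are those of RefSeq, GRCm38.p6, found for 5 of the 10 members.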

Additional observations from a re-analysis of the deposited data

How the results depend on the processing

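The number of vessel genes that passed for DSS in WT stayed between 7 and 9 under 18 of 19 alternatives, with 7 to 8 when single arrays were left out, and was 0 with the fibroblast covariate. For DSS averaged over genotypes it was 7 to 9 without single arrays and 0 with the covariate. For DSS in KO it was 0 with the covariate and in the fit on the 4 arrays compared, 1 without the pancreas-bearing DSS arrays, and 0 to 5 without single arrays. For untreated KO against WT the fit without the pancreas-bearing arrays was the same as that on the 4 arrays compared. Rgs5 and Plvap lost their calls there without any 1 of the 4 untreated arrays. The number that passed for untreated KO against WT was 8 with array weights, 8 on the 4 arrays compared, 1 after quantile normalization and 0 with the covariate. For KO against WT with DSS and for the interaction it was 0 under every alternative run. The cause of these changes was not tested. The covariate uses 1 of 4 residual degrees of freedom and is itself measured on the same arrays. Its slope rests on gaps between replicates within groups, so the calls lost with it do not show which genes follow the fibroblast list.

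Some fitted differences changed sign, and Rgs5 with DSS averaged was the one of them that had passed. Without the covariate the difference was 1.33 for Cdh5 with DSS in KO, 0.55 for Kdr in untreated KO against WT and 0.94, a call, for Rgs5 with DSS averaged. With the covariate Tie1 was -1.60 for DSS in WT, -0.94 for DSS in KO, -1.27 for DSS averaged, -0.85 for untreated KO against WT and 0.67 for the interaction. In the same fit Cdh5 was -0.042 for DSS in KO, Kdr was -0.037 for untreated KO against WT and 0.11 for the interaction, and Rgs5 was -0.26 for DSS averaged. Without the pancreas-bearing arrays Tie1 was -0.042 for DSS in KO, and for KO against WT with DSS Cdh5 was -0.35, Kdr -0.50 and Jam2 -0.20. Quantile normalization gave 0.071 for Rgs5 with DSS in KO. Leaving out single arrays gave -0.042 to 0.68 for Tie1 and -0.46 to 0.44 for Rgs5 with DSS in KO. For KO against WT with DSS it gave -0.14 to 0.91 for Cdh5, -0.072 to 1.10 for Eng, -0.47 to 0.79 for Kdr, -0.47 to 0.39 for Tie1, -0.30 to 0.76 for Jam2 and -0.18 to 0.72 for Rgs5. The interaction ran from -1.03 to 0.24 for Kdr and from -0.59 to 0.27 for Tie1.

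With the replicate number as a block the counts were 8 for DSS in WT (474 over all genes), 2 for DSS in KO (102) and 2 for untreated KO against WT (48). They were 0 for KO against WT with DSS (45), 0 for the interaction (10) and 8 for DSS averaged (699). Plvap lost its call for DSS in KO (adjusted p = 0.0576, limma). Replicate differences of the groups correlated with r from -0.246 to 0.276, so the numbers are not taken to pair the samples. Tie1 was not tested under the stricter filter on low values.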

Other observations

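A few vessel genes ran against the layering of the 10. They were chosen after their values were seen. Clec14a, an endothelial surface glycoprotein, had signals of 5.26 and 6.06 in KO with DSS, 5.98 and 5.82 in WT with DSS, 6.03 and 6.12 in untreated KO and 6.77 and 6.87 in untreated WT, above background in untreated WT and in 1 KO DSS array. Background exceeded both WT DSS and both untreated KO arrays, so WT with DSS was at least 1.63-fold lower than untreated WT (adjusted p = 0.0994) and untreated KO at least 1.59-fold lower than untreated WT (adjusted p = 0.51, limma). Neither passed.

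Dll4 had signals of 8.13 and 8.38 in KO with DSS and 9.84 and 9.07 in WT with DSS. Without DSS its signals were 8.36 and 8.32 in untreated KO and 8.53 and 7.81 in untreated WT. Between KO and WT with DSS the differences were -1.204 ± 0.312 for Dll4 (adjusted p = 0.196), -0.71 ± 0.29 for Ets1 (adjusted p = 0.452) and -0.69 ± 0.26 for Vegfa (adjusted p = 0.409, limma). For each of these 3 genes every KO DSS array lay below every WT DSS array, and none passed.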
